A study of Sus scrofa with 3 samples.

Results

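The genes described here are 5 that mark the endothelium, the cell layer that lines blood vessels: CDH5, PECAM1, VWF, KDR and SELE. They were chosen by name, and every probe set to which the platform table gives exactly 1 of these symbols was taken, which came to 10 probe sets for 5 of the 6765 genes named on the array. Their Entrez gene identifiers are 414737 for CDH5, 396941 for PECAM1, 399543 for VWF, 397311 for KDR and 397508 for SELE. No member lacked a probe set: CDH5, PECAM1 and KDR had 2 each, VWF had 3 and SELE had 1. The RNA came from the last deciduous molar germs of the mandible, with the dental lamina, of Wuzhishan miniature pigs. For E40, for E50 and for E60, germs of a single litter were pooled, and the pool's RNA went onto 1 Porcine Genome Array of Affymetrix. By the labels, the germ was in the cap stage without a secondary dental lamina at E40, in the bell stage with that lamina starting to form at E50, and in the secretory stage with the lamina at E60, while the study's methods call E60 the late bell stage. The animals were of a single breed and no treatment is named, and a pool of 1 litter stands for each stage, so the stage cannot be told apart from the litter, the dissection or the array. Since a stage has 1 array, neither a replicate spread nor a p-value can be given, and every difference below compares 3 arrays.

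Blood vessels grow towards the tooth germ from the surrounding mesenchyme and reach the dental papilla and the outer face of the enamel organ as the crown takes shape, while the enamel epithelium itself holds no vessels. Endothelial cells are joined by vascular endothelial cadherin, the product of CDH5, and by PECAM1 (CD31), an adhesion molecule of the immunoglobulin family that platelets and leukocytes also carry. VWF encodes von Willebrand factor, the large clotting protein that endothelial cells store and secrete and that binds platelets. KDR encodes the main receptor through which vascular endothelial growth factor drives vessel growth. SELE encodes E-selectin, a leukocyte adhesion molecule that endothelial cells make mainly after activation by inflammatory cytokines.

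The values are MAS 5.0 signals, which have no unit and depend on the probes, so they were compared between stages within a probe set and never between genes. Signals below the 25th percentile of the array they came from, called the floor here, were treated as too dim to rank. For E40, E50 and E60 in turn, the floor was 29.3, 17.2 and 21.8 and the median signal 163.5, 125.0 and 132.0. A difference of over 2-fold between 2 arrays was called higher or lower. A fold with 1 of its signals under the floor is a lower bound where the dimmer signal is the one under it. The scale of the arrays bears on every difference given here. Over all 23999 probe sets, the median of the log2 differences was -0.15 for E50 against E40. It was 0.04 for E60 against E50 and -0.11 for E60 against E40. These are medians over the differences of single probe sets, not differences between the array medians given above. As a measure of precision inside the arrays, the log2 differences of probe sets of the same gene with a mean signal of at least 100 had an SD of 0.49 for E40 and E50 (1093 genes), 0.34 for E50 and E60 (1077 genes) and 0.47 for E40 and E60 (1106 genes). This SD covers differences between probes and noise on the array, not differences between litters.

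Of the 10 probe sets, 5 lay above the floor on all 3 arrays, 2 on some of them and 3 on none. CDH5, PECAM1 and VWF were thus measured at every stage, SELE was measured on E50 and E60, and KDR was not measured at any stage. The vessel label of the tissue therefore rests on CDH5, PECAM1 and VWF, and KDR, a defining gene of the same cells, gave no signal above the floor.

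**Figure D1:**
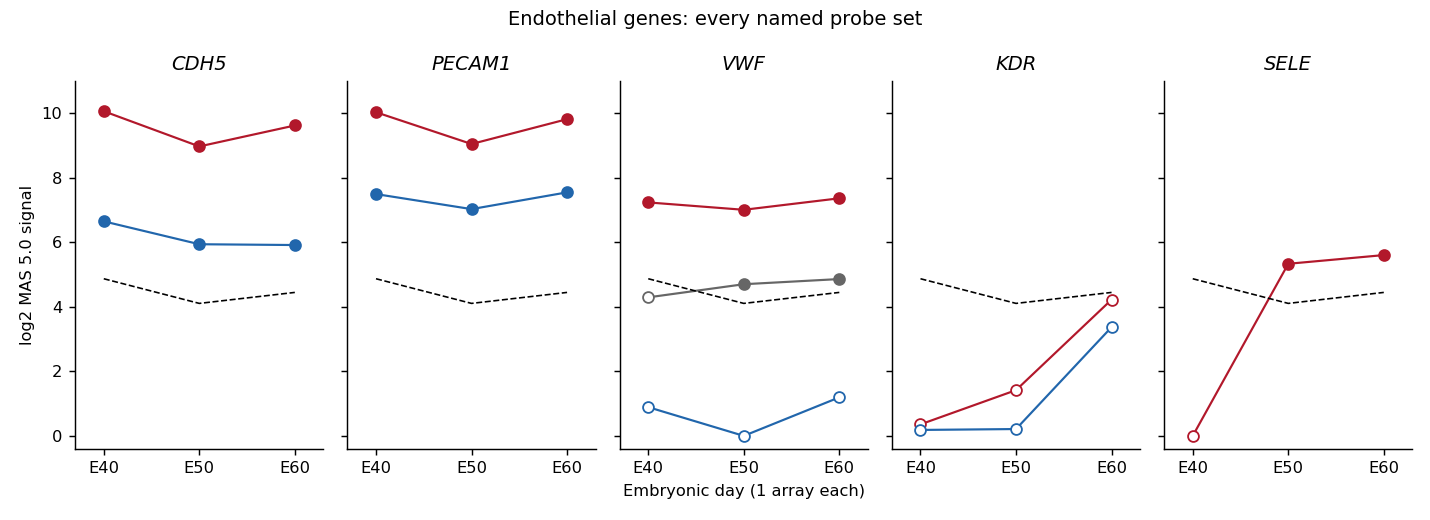
Log2 MAS 5.0 signal (vertical axis) of each CDH5, PECAM1, VWF, KDR and SELE probe set against the embryonic day of the array (horizontal axis). Red lines are the probe set with the highest mean signal of a gene, blue and grey lines the others, the dashed line is the floor of each array, and open circles lie under it. The brighter probe sets of CDH5 and PECAM1 are lowest on E50, both KDR probe sets stay under the floor, and SELE is under it on E40 alone.

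CDH5 was the 1 member that passed 2-fold. The signals of its brighter probe set were 1070.5, 502.4 and 788.1 for E40, E50 and E60. From E40 to E50 it fell 2.13-fold, a log2 difference of -1.09 that exceeds the SD of 0.49 between probe sets of a gene, and E60 lay 1.57-fold above E50. The fall was the only call among the 6 member probe sets that gave a value on E50 versus E40. Among all probe sets with 1 symbol, 9.89% were lower by over 2-fold in this pair and 2.68% were higher, so a single call among 6 is no result about the members. Among probe sets with a mean signal of 100 to 1000 the shares were 6.49% and 2.76%, with 1.63% and 3.51% for E60 against E50, and 7.18% and 4.61% for E60 against E40. The dimmer CDH5 probe set stood at 100.5, 61.4 and 60.4. It was also lower on E50 than on E40 (1.64-fold, within the 2-fold limit), but E50 and E60 differed by 1.02-fold, so its probe sets do not show the same course after E50. On E60 versus E40 their log2 differences were -0.44 and -0.73.

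PECAM1 was also lowest on E50. The signals of its brighter probe set were 1047.6, 529.3 and 902.5 in stage order. E50 was 1.98-fold lower than E40, just inside the 2-fold limit, and E60 was 1.71-fold higher than E50. The dimmer probe set stood at 180.5, 130.7 and 187.3, so that it too was lowest on E50, with differences of 1.38-fold and 1.43-fold. E40 and E60 lay close to each other on both, at log2 differences of -0.22 and 0.05, which are under the SD of 0.47 between probe sets of a gene. The probe sets of PECAM1 differed by 0.52 (log2) on E50 versus E40, and those of CDH5 by 0.38.

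On the brightest probe sets, VWF had the smallest differences of the 3 members measured at all stages. Its brightest probe set stood at 150.9, 128.7 and 164.8 in stage order, and no pair of stages differed by more than 1.28-fold. The log2 difference of E50 from E40 was -0.23 and that of E60 from E40 was 0.13, both smaller than the SD of their pair, and that of E60 from E50 was 0.36, barely above the SD of 0.34. A second VWF probe set stood at 19.6, under the floor, and then at 26.0 and 29.1, and the last was under the floor throughout, at 1.9, 1.0 and 2.3. Neither lets E40 be compared with a later stage. On E50 versus E40, CDH5 thus differed by 1.82-fold more than VWF and PECAM1 by 1.69-fold more, taking the brightest probe set of each. These ratios are the same for any common factor applied to an array, because both genes were read on the same arrays. They do depend on the probe set, since the dimmer ones of CDH5 and PECAM1 stood nearer to VWF, at -0.71 and -0.47 (log2).

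Both KDR probe sets lay under the floor on every array. The first stood at 1.3, 2.7 and 18.7 and the second at 1.1, 1.2 and 10.3. Each was highest on E60, where the first came near the floor of 21.8, but no fold is given for signals this dim. Of the 10069 probe sets with 1 symbol, 1152 (11.4%) were under the floor on all arrays. FLT1, the other main receptor of vascular endothelial growth factor, was above it on 1 of its 3 probe sets, at 44.1, 22.4 and 36.5.

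SELE had the lowest value of the table on E40, a signal of 1.0, and then stood at 40.4 and 48.7. Both later signals were above the floor but in the dimmer part of the array, with 35.9% and 36.4% of all probe sets dimmer still. Against the E40 floor of 29.3 the E50 signal was at least 1.38-fold higher and the E60 signal at least 1.66-fold higher, so neither was called. Without a floor the same signals gave 40.4-fold and 48.7-fold, numbers that are set by the lowest value of the table. That value is not rare, since 380 probe sets carried it on E40. Of these, 5 (1.32%) were above the floor on E50, and 2, SELE among them, reached the signal that SELE had there. On E60, 6 of the 380 were above the floor and 2 were as bright as SELE. In the reverse direction, 36 of the 720 probe sets at the lowest value on E50 (5%) were above the floor on E40. E50 and E60 differed by 1.21-fold for SELE.

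In total, 0 of the 7 member probe sets measured on E60 versus E50 passed 2-fold, against 1.99% lower and 4.89% higher among all probe sets with 1 symbol, and 0 of the 6 that gave a value on E60 versus E40, against 8.64% lower and 4.38% higher. Ordered by signal, the brighter probe sets of CDH5 and PECAM1 ran E40, E60, E50, and VWF and the dimmer PECAM1 probe set ran E60, E40, E50. The neighbours E40 and E60 differed by less than the SD between probe sets of a gene for each of these 4. The other neighbours were E60 and E50 for the brighter CDH5 and PECAM1 probe sets, which differed by more than the SD of their pair. They were E40 and E50 for VWF and the dimmer PECAM1 probe set, at log2 differences of -0.23 and -0.47 for E50 against E40, both under the SD of 0.49. The dimmer CDH5 probe set, also above the floor on all arrays, ran E40, E50, E60 instead. Its log2 difference of E60 from E40 was -0.73. The SD of that pair was 0.50 when probe sets of any signal above the floor were taken.

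The scaling of the arrays moved these values, and for VWF it turned the sign. On E50 versus E40 the brighter CDH5 probe set stood at -1.09 as deposited, -0.98 when scaled to 10 housekeeping genes, -1.06 after quantile normalization and -0.70 at equal medians, so the call was lost under the first and the last of these alternatives. PECAM1 stood at -0.99, -0.87, -0.94 and -0.60, and VWF at -0.23, -0.12, 0.18 and 0.16. On E60 versus E50 the brightest probe set of each of these 3 genes was higher on E60 under all 4 scalings, at 0.57 to 0.65 for CDH5, 0.69 to 0.77 for PECAM1 and 0.25 to 0.36 for VWF. The dimmer CDH5 probe set was lower on E60 under all 4, at -0.02 to -0.23, and the second VWF probe set went from 0.16 as deposited to -0.14 after quantile normalization. Measured from the median probe set of the same pair, which removes any common factor, the values for E50 against E40 were -0.94 for CDH5, -0.84 for PECAM1 and -0.08 for VWF, and after quantile normalization -1.14, -1.03 and 0.10. For SELE, the bound on E50 versus E40 was 0.46 as deposited, 0.58 with the housekeeping genes, 0.85 at equal medians and 1.15 after quantile normalization, which passes 2-fold.

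**Figure D2:**
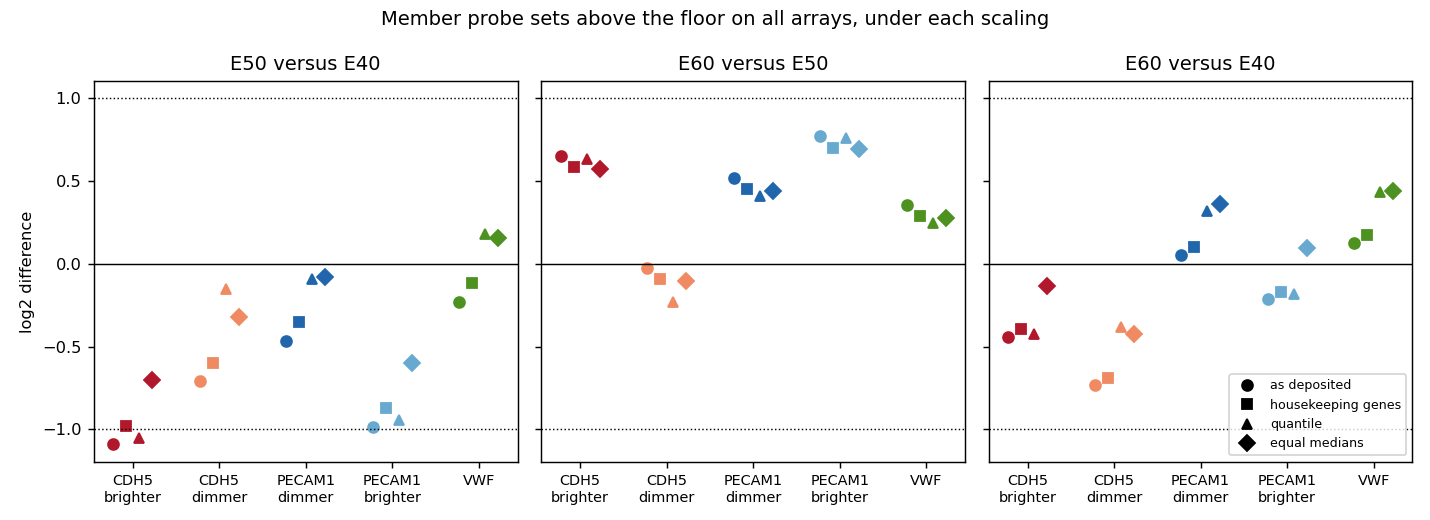
Log2 difference (vertical axis) in each pair of stages for the 5 member probe sets above the floor on all arrays (horizontal axis), with the arrays as deposited (circles), scaled to the housekeeping genes (squares), quantile normalized (triangles) or at equal medians (diamonds). Dotted lines mark 2-fold. On E50 versus E40 the brighter CDH5 probe set runs from -1.09 to -0.70 and VWF crosses 0, while on E60 versus E50 both PECAM1 probe sets, VWF and the brighter CDH5 probe set stay above 0.

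To see whether other vascular genes took the same course, 96 genes in 7 groups were listed, with earlier results of these data known. Of these genes, 62 had a probe set with 1 symbol and 34 had none. The list holds the members, and several of its genes, such as JAG1, VEGFA, THBS1, F3, KLF4, HEY2 and PDPN, are also made by other cells of the germ. Of the 56 genes that gave a value on E50 versus E40, 13 were lower by over 2-fold and 2 were higher, with a median log2 difference of -0.60. Among all named genes, each read on its brightest probe set, 8.09% were lower and 2.77% higher, with a median of 0.05. On E60 versus E50, 5 of 56 were higher and 1 was lower, with a median of 0.37, against 4.41% and 1.76% and a median of -0.04. From E40 to E60, 4 rose and 7 fell and the median was -0.13, against 4.48% and 7.29% and a median of 0.00. The first 2 pairs share the E50 array, so a gene that is dim there is lower in the first and higher in the second, and the second pair is no independent evidence of the first. With the members left out, the medians of these 2 pairs were -0.60 and 0.36.

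**Figure D3:**
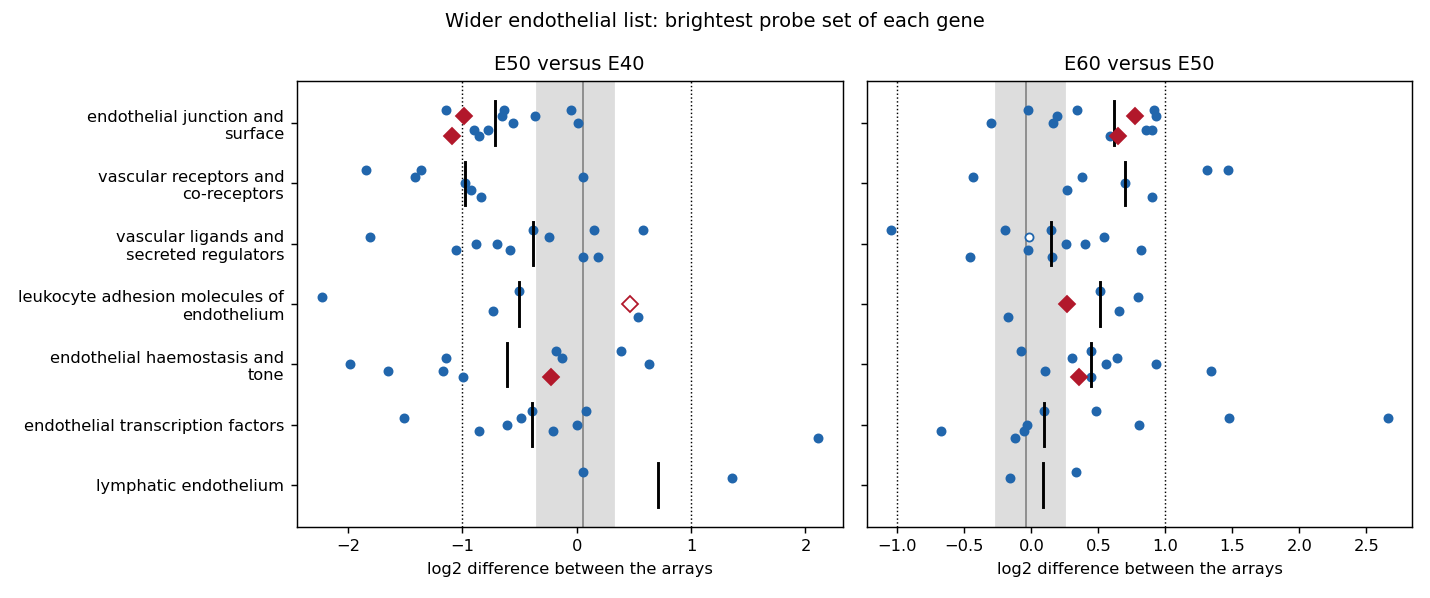
Log2 difference between the arrays (horizontal axis) for E50 against E40 and for E60 against E50, for the measured genes of 7 vascular groups (vertical axis), each read on its brightest probe set. Red diamonds are members, blue circles other genes, open symbols are bounds, black bars are group medians, the grey band spans the quartiles of all named genes with their median as a line, and dotted lines mark 2-fold. Junction and receptor genes lie mostly left of 0 in the first pair, with medians of -0.72 and -0.97, and right of it in the second, with medians of 0.62 and 0.70.

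Most junction and surface genes of the endothelium were dimmer on the E50 array. E50 was below E40 for 11 of 12 measured, by over 2-fold for 2 of them, and the median was -0.72. Among all named genes, E50 was below E40 for 46.1%, by over 2-fold for 8.09%. Beside CDH5, MCAM, an adhesion molecule of endothelial and mural cells, fell 2.21-fold (473.5 to 214.1) and stayed at 210.0 on E60, although its other probe set stood at 209.8, 176.9 and 338.3. ESAM, a junction molecule of endothelial cells, stood at 200.8, 136.8 and 153.2, ECSCR, a receptor of endothelial cell movement, at 222.2, 141.0 and 268.5, and ICAM2, a ligand of leukocyte integrins, at 90.7, 48.6 and 87.8, all within 2-fold. CLDN5, the tight junction protein of endothelium, differed little (339.4, 328.9 and 417.2). CD34, a surface sialomucin, stood at 447.0, 347.7 and 396.0, and CD93, a lectin-like receptor, at 479.7, 482.1 and 390.7.

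Among receptors, TEK and TIE1, the angiopoietin receptor and its partner, were lower on E50. TEK stood at 210.0, 81.7 and 226.6, so it fell 2.57-fold and rose 2.77-fold, and its other 2 probe sets were under the floor. TIE1 stood at 206.2, 77.2 and 100.4, a fall of 2.67-fold after which E60 was 1.30-fold above E50 and 2.05-fold below E40. EDNRB, an endothelin receptor that neural crest cells also carry, stood at 65.2, 18.1 and 44.9 and was called in both pairs (lower, then 2.48-fold higher), with the E50 signal only just above the floor. S1PR1, the sphingosine 1-phosphate receptor that steadies vessels, had 3 probe sets, which were all lowest on E50, the brightest at 651.6, 364.3 and 679.7. NOTCH4, a Notch receptor of endothelium, stood at 349.8, 183.9 and 221.4. ENG, a co-receptor for TGF-beta, went against the others on E50 (166.5, 173.5 and 128.1). In all, 3 of 7 measured receptors fell by over 2-fold to E50 and 2 of 7 rose from there to E60, against 8.09% and 4.41% of all named genes.

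Of 11 measured ligands, E50 was below E40 for 7, by over 2-fold for 2 of them, with a median of -0.39, beside 46.1% and 8.09% of all named genes. VEGFA, the ligand of KDR and FLT1, was read at 1899.3, 1974.2 and 2192.0 by its brightest probe set but at 2789, 1515 and 1753 on another, so its probe sets disagree between the first 2 stages. ANGPT1, which activates TEK, was highest on E50 (95.7, 143.2 and 69.4) and fell 2.06-fold by E60, whereas ANGPT2, which can oppose it, stood at 122.6, 103.4 and 150.4. DLL4, the Notch ligand of sprouting endothelium, stood at 154.5, 84.0 and 110.8, and EGFL7, a secreted endothelial factor, at 386.0, 295.3 and 327.5. FGF2, a growth factor for many cell types, fell 3.51-fold from E40 to E50 (77.4 to 22.1), and THBS1, an inhibitor of vessel growth, fell 2.08-fold on 1 probe set (860.6, 414.5 and 406.6) but stood at 192.5, 212.7 and 109.9 on another.

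The other leukocyte adhesion molecules were above the floor on all arrays. SELP, the P-selectin gene, stood at 68.6, 41.2 and 64.9, ICAM1 at 136.2, 95.9 and 136.6, and VCAM1, which mesenchymal cells also make, at 1352.4, 1956.7 and 1730.7. MADCAM1, an addressin that lymphocytes bind, fell 4.69-fold (239.0 to 50.9) and stood at 88.3 on E60.

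Of 10 measured genes of haemostasis and vessel tone, VWF among them, 4 fell by over 2-fold from E40 to E50, against 8.09% of all named genes. THBD, the thrombin receptor thrombomodulin, fell 3.14-fold (439.5 to 139.8) and rose 2.53-fold to 353.5 on E60. NOS3, the endothelial nitric oxide synthase, stood at 123.4, 54.7 and 58.8, so it fell 2.25-fold and stayed low. F3, the tissue factor gene, which epithelial and perivascular cells make, stood at 1053.2, 267.2 and 509.5, and EDNRA, an endothelin receptor of smooth muscle and mesenchyme, at 149.3, 67.5 and 105.1. PROCR, the endothelial protein C receptor, stood at 155.9, 137.3 and 186.5. TFPI, the inhibitor of the tissue factor pathway, went the other way, at 132.6, 205.5 and 302.8, which is 2.28-fold higher on E60 than on E40.

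Of 9 measured transcription factors, 1 was higher and 1 lower by over 2-fold on E50, against 2.77% and 8.09% of all named genes. ERG, an ETS factor that keeps endothelial identity, stood at 87.5, 62.4 and 173.6 and rose 2.78-fold from E50 to E60. LMO2, a factor of blood and endothelial cells, stood at 594.6, 388.6 and 679.3. KLF4, which endothelial and epithelial cells use, fell 2.85-fold (707.5 to 247.8) and then rose 6.32-fold to 1566.0. HEY2, a target of Notch signalling, rose 4.31-fold from 331.3 to 1428.9 and stood at 1310.9 on E60, while another of its probe sets stood at 68.1, 80.9 and 48.1. Of the lymphatic genes, LYVE1 stood at 66.1, 68.8 and 86.7 on 1 probe set and at 59.8, 41.7 and 87.7 on another, and PDPN, which odontoblasts and epithelium also make, rose 2.57-fold from 928.5 to 2383.7.

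In 36 of the 54 listed genes above the floor on all arrays (66.7%) the lowest signal was that on E50, against 24.8% of 5743 named genes. This measure was added with the data known. The share was 64.8% against 18.9% after scaling to the housekeeping genes. It was 53.7% against 19.9% after quantile normalization and 53.7% against 12.4% at equal medians, so the gap to all named genes was seen under each scaling. A low on E50 was not particular to this list. As deposited, E50 was also lowest for 3 of 3 erythroid, 3 of 3 platelet and 3 of 4 leukocyte genes above the floor on all arrays. For mural cells it was 2 of 7. At equal medians the counts were 1 of 3, 1 of 3, 2 of 4 and 2 of 7. Junction genes (10 of 12) and receptors (6 of 7) made up 16 of the 36. Measured from the median probe set, the list stood at -0.45 for E50 against E40 and at 0.32 for E60 against E50. After quantile normalization it stood at -0.31 and 0.32. That median is over all probe sets, also those without a symbol or under the floor, so it is not a like set. All named genes, read as the list was, had medians of 0.05 and -0.04 as deposited. As the germs are bulk tissue, fewer endothelial cells and less RNA of these genes per cell cannot be told apart in any of these values. Nor can either be told apart from a difference in litter, dissection or array.

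**Figure D4:**
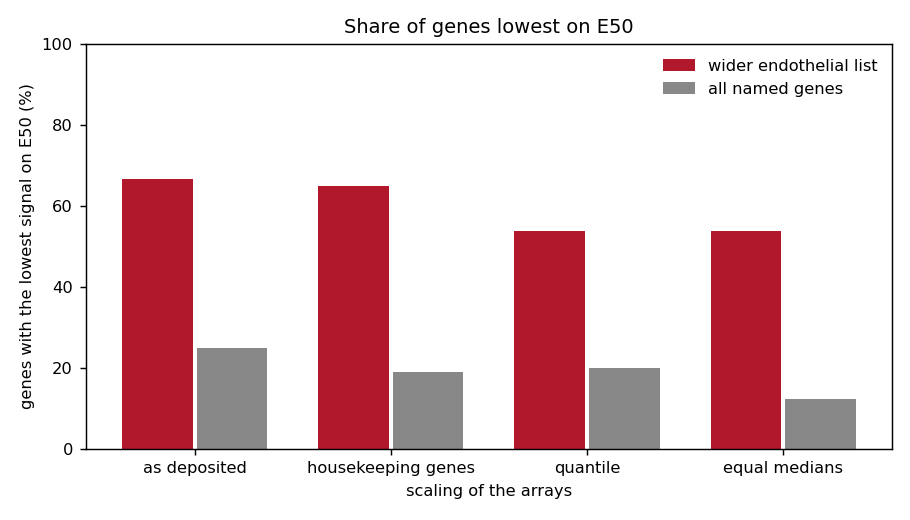
Share of genes whose lowest signal was that on E50 (vertical axis, %) for the 54 genes of the wider vascular list and for all named genes above the floor on all arrays, under 4 scalings of the arrays (horizontal axis). Red bars are the vascular list and grey bars all named genes. The red bars run from 53.7% to 66.7% and the grey bars from 12.4% to 24.8%.

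Markers of other cell types that vessels contain or adjoin were read on the same arrays. E50 was below E40 for all 4 erythroid genes that gave a value, with a median of -0.24 and none past 2-fold. Of these, HBE1 lay under the floor on E40 (28.8, with 25.6 on E50), so its direction was not measured. Among all named genes the shares were 46.1% for E50 below E40 and 8.09% for a fall of over 2-fold. HBB, the beta-globin gene, stood at 2038.5, 1759.0 and 2341.4. AHSP, a chaperone of alpha-globin, rose 2.02-fold from E50 to E60 (34.4, 28.4 and 57.3). The summed signal of the 5 erythroid probe sets, most of it HBB, was 2380, 1993 and 2659. Of the platelet genes, which bear on PECAM1, VWF and SELP, 3 of 8 were measured, and ITGB3, an integrin chain that endothelial cells share, was 3.05-fold lower on E50 (229.2 to 75.0) and 2.88-fold higher on E60. The defining gene ITGA2B stood at 84.1, 52.2 and 54.7. The summed platelet signal was 439, 226 and 409, a sum in which bright probe sets weigh most and of which ITGB3 makes the largest part on E40 and E60. PPBP, a platelet chemokine, was under the floor on all arrays. Of the leukocyte genes, 5 gave a value on E50 versus E40, with a median of -0.60, and PTPRC, the pan-leukocyte marker, was under the floor on every array (18.4, 11.3 and 2.9). AIF1, of macrophages, stood at 309.7, 447.3 and 609.0, and TYROBP, an adaptor of myeloid cells, fell at least 5.85-fold and rose at least 6.01-fold (100.7, 8.5 and 103.5). The part of these cells in the PECAM1 values was not tested.

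Of 7 measured genes of mural cells, the pericytes and smooth muscle around vessels, 2 rose and 1 fell by over 2-fold from E40 to E50. The median was 0.46. Among all named genes, 2.77% rose and 8.09% fell, with a median of 0.05. The 2 that rose were ANPEP, an aminopeptidase of pericytes and other cells, 3.93-fold (140.6, 552.4 and 520.8), and TAGLN, a smooth muscle actin-binding protein, 2.06-fold (1563.5, 3215.4 and 2716.9). PDGFRB, a receptor of pericytes and mesenchyme, stood at 2835.5, 1758.1 and 1865.6, RGS5, of pericytes, at 554.1, 698.0 and 1631.5, and ACTA2, the smooth muscle actin, fell 2.83-fold from 2673.8 to 944.4.

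All 10 listed skeletal muscle genes fell by over 2-fold from E40 to E50, against 8.09% of all named genes. Their median was -6.24 and their summed signal was 34298, 811 and 3493. Of the E60 sum, 3266.3 was MYL1, a myosin light chain (7116.4, 481.2 and 3266.3), and the other 9 genes stood at 48.8 or less on E60. On E60 versus E40 the muscle median was -6.31, while the junction genes stood at -0.19 and the receptors at -0.38. Muscle carries vessels of its own, and its part in the E40 values of the endothelial genes was not tested. Of 6 measured genes of tooth epithelium and dental mesenchyme, 4 rose and 1 fell by over 2-fold from E40 to E50. Among all named genes, 2.77% rose and 8.09% fell. The gene that fell was MSX1, at 1559.0, 737.1 and 1213.7. Its log2 difference of E50 from E40 was -1.08, beside -1.09 for the brighter CDH5 probe set.

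The genes that activate endothelium were read because SELE responds to them. Of 7 measured cytokine and NF-kappaB genes, none rose and 1 fell by over 2-fold between E40 and E50. Among all named genes 2.77% rose and 8.09% fell, so these counts are no result about the group. The gene that fell was IL1A, an inflammatory cytokine, at 143.5, 55.6 and 30.1. IL1B stood at 86.7, 116.0 and 107.6, TNF at 30.6, 18.3 and 31.9, close to the floor, NFKBIA, a target and inhibitor of NF-kappaB, at 973.5, 954.0 and 792.7, and CXCL8 and IL6 were under the floor throughout. CCL2, a chemokine, rose 2.17-fold from E50 to E60 (284.3, 212.9 and 461.4). Interferon-induced genes were higher on E50 in 5 of 8 (median 1.38), against 2.77% of all named genes. They were lower again on E60 in 5 of 8 (median -1.76), against 1.76%. In both pairs these were ISG15, MX1, IFIT1, IFIT3 and RSAD2, with ISG15 at 113.5, 719.5 and 122.1. SELE was under the floor on E40 and stood at 40.4 on E50 and 48.7 on E60. Of the hypoxia genes, none of 5 passed 2-fold on E50 versus E40, against 2.77% higher and 8.09% lower among all named genes. SLC2A1, the glucose transporter, stood at 5786.5, 3888.5 and 2889.8. The part of any of these in the SELE and CDH5 values was not tested.

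**Figure D5:**
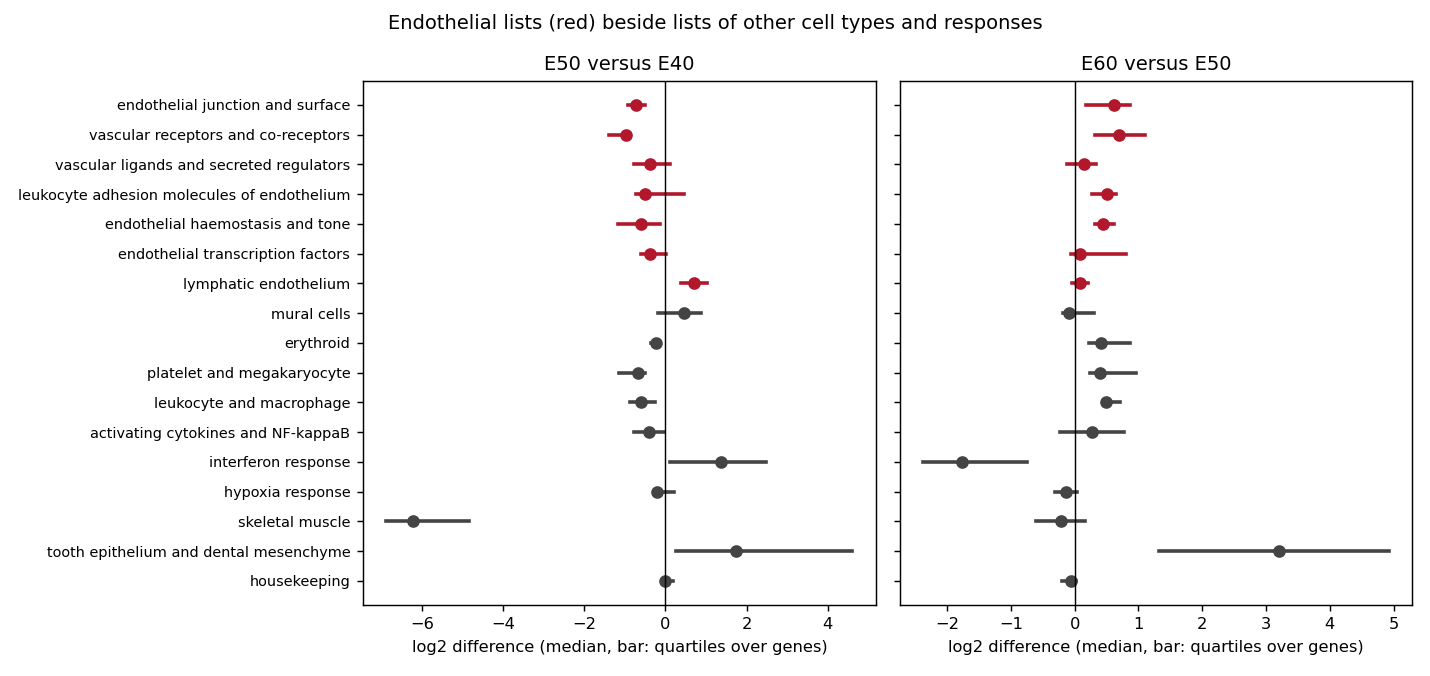
Median log2 difference (horizontal axis; dot) with the quartiles over genes (bar) for E50 against E40 and for E60 against E50 in each gene group (vertical axis). Red marks are the vascular groups and dark marks other cell types and responses. Skeletal muscle stands at -6.24 in the first pair, junction genes at -0.72 and mural cells at 0.46.

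The genes most like each member in course were sought over the 5742 other named genes above the floor on all 3 arrays, by the largest difference of the log2 signals centred on their mean. Over 3 arrays such likeness is easily met. For CDH5, 26 genes lay within 0.1, the nearest being TLK1 (0.02), ATP4A (0.02) and UPK2 (0.02), which encode a kinase, a gastric proton pump chain and a urothelial protein. PECAM1 ranked 36 among the genes nearest to CDH5, at 0.12, and CDH5 ranked 41 for PECAM1, with ORC4 (0.02), NRDE2 (0.02) and MAP1A (0.04) nearest. For VWF, 175 genes lay within 0.1, with NUBP2, TPCN2 and DDX6 nearest, and CDH5 and PECAM1 were 0.48 and 0.39 away.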

How the data were processed

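RNA of 3 pools, 1 litter for each stage, was measured on 1 array each. The authors normalized the scans with the MAS 5.0 algorithm of GeneSpring and deposited log2 signals, and the mean signal with the outer 2% left out at each end was checked to be equal on the arrays. Of 24123 probe sets, 124 controls were left out. The platform table gave 1 symbol to 10069 probe sets, several to 198 and none to 13732. Each listed gene was read on its brightest probe set by mean log2 signal. Folds are ratios of 2 arrays with signals raised to the 25th percentile, and no detection calls were used. The members and the 17 gene lists (205 genes) were chosen with earlier results of these data known. Genes that could be named were the members, any listed gene, first those past 2-fold and then bright ones, and the 3 genes nearest to each member in course. Not every listed gene past 2-fold is named, and the choice was made with their values seen. Python 3.11.15 with pandas 2.3.3 was used. Alternatives changed 1 choice at a time: the floor, the scaling, the threshold, and the probe sets. The share of genes lowest on E50 and its scalings were added later, with the data known.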

Additional observations from a re-analysis of the deposited data

How the results depend on the processing

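With 1 array per stage, no result has a replicate check, and dim probe sets, such as those of KDR and SELE on E40, give bounds or no value. No paired analysis was possible because each stage has 1 array. A value was taken as kept within 1.5-fold, a limit set for this work. Of 106 member values under the alternatives, 103 were kept, 3 moved by more and 0 called values changed sign. These counts say little, because the other floors left most values above the floor as they were. Equal medians and the housekeeping genes shift such values of a pair by a common amount that is under the limit. A change of sign was counted for called values only, here the CDH5 fall, so VWF was counted as kept although its sign turned. The number of member probe sets past 2-fold on E50 versus E40, 1 as given, was 3 without a floor, 2 after quantile normalization, and 0 at equal medians, with the housekeeping genes and at 3-fold. Against 0 as given, it was 3 without a floor in each of the other pairs, and 1 at equal medians and after quantile normalization for E60 against E40. For the wider vascular list, the 13 lower genes on E50 versus E40 became 6 with a floor at the 50th percentile, 7 at equal medians, 7 after quantile normalization and 5 at 3-fold, and the 2 higher ones 5 without a floor, 6 after quantile normalization, 1 at 3-fold and 1 with the mean over probe sets. On E60 versus E50 the 1 lower gene became 4 without a floor and 0 with a floor at the 50th percentile, at 3-fold and with the mean over probe sets, and the 5 higher genes became 2, 1 and 3 under the last 3. On E60 versus E40 the 7 lower genes became 3 with a floor at the 50th percentile, 2 at equal medians and 1 at 3-fold, and the 4 higher ones 6 at equal medians, without a floor and after quantile normalization, and 1 at 3-fold. The list median on E50 versus E40 ranged from -0.65 to -0.21 over the alternatives and that on E60 versus E40 turned from -0.13 to 0.18 at equal medians. A common floor and the omission of probe sets with shared matches kept the counts within 1.5-fold. The cause was not tested, beyond what fewer measured genes or a stricter threshold entail.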
